A study of Mus musculus with 12 samples.

Results

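The comparison described here asked whether the step from the immature single-positive (ISP) to the double-positive (DP) stage of T cell development ran differently in thymocytes labelled Bcl6 knockout. It used the 8 of 12 libraries made from thymi treated with an antibody to CD3, and covered every gene of the deposited table. The value for a gene is a difference of differences: the DP minus ISP step of the libraries labelled KO, minus the same step of the control libraries. All embryos were of the C57BL/6 strain, lacked Rag1 and carried 2 loxP-flanked Bcl6 alleles. Control embryos were Rag1KO Bcl6fl/fl LckCre-, and KO embryos were Rag1KO Bcl6fl/fl LckCre+. Cre runs from the Lck promoter, which is active in T lineage cells, so other thymic cells should keep Bcl6. The design cannot tell loss of Bcl6 apart from the presence of Cre. Thymi were of embryonic stage E16.5 in most labels and E17.5 in the treatment protocol, and were cultured for 2 days with 1 µg/ml of the antibody. ISP cells were sorted as CD8+ CD4-, and DP cells as CD8+ CD4+. Each of the 4 groups (ISP control, ISP KO, DP control, DP KO) had 2 libraries. The labels do not say whether these came from separate embryos or cultures. So p-values measure only the spread between these libraries, which in KO may be technical. In control, the sex-linked gene Xist differed in level between libraries 1 and 2 of both populations. Those 2 therefore did not hold the same mix of embryos.

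Thymocytes without Rag1 cannot rearrange a T cell receptor gene and stop before the step called beta-selection. Antibody to CD3 crosslinks the CD3 chains already on their surface and stands in for the missing pre-T cell receptor signal. Cells then switch on CD8, pass through the ISP stage in rapid division, switch on CD4, and slow their cycling as resting DP cells. BCL6 represses transcription. It is best known from the germinal centre, where follicular helper T cells and B cells need it, and where it represses cell cycle checkpoint, differentiation and signalling genes.

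The labels and the cells were checked first. Bcl6 was measured over the whole gene (chr16:23965052-23988852), so the level need not drop when part of it is deleted. It read 11.9 and 11.6 RPKM for ISP control, 18.9 and 25.1 for ISP KO, 72.5 and 70 for DP control, and 87.7 and 111.3 for DP KO. RPKM is the number of reads scaled for gene length and for the reads of the library. Its level was therefore higher in the libraries labelled KO in both populations (adjusted p = 0.0476 in ISP and 0.0298 in DP), and it does not show the deletion. KO stands here for what the label says. Its step did not differ between genotypes (-0.37 ± 0.18 SE, log2 scale, adjusted p = 0.272). Cd4, used in the sort, read 13.9 to 20.5 RPKM in the 4 ISP libraries, 344.1 and 338.0 in DP control, and 249.5 and 190.6 in DP KO. In 6 of the 8 libraries, title and sequencing library name disagree on the population or the genotype, and the stage label disagrees with the title in 5. Groups here follow the titles. The median residual variance over genes was 0.00966 with the titles and 0.0214 with the library names. Regrouped by library name, the libraries gave 0 limma calls for the difference and for either step (101, 100 and 132 genes at an unadjusted p under 0.05 for the difference, control step and KO step). KO minus control was then called for 4763 genes in ISP and 4884 in DP. Every result here therefore depends on the titles being right. The Cd4 levels above follow the population of the titles. The growth hormone gene Gh had 0 reads in the 4 libraries titled control and 20, 35, 59 and 93 in the 4 titled KO, so its reads follow the genotype of the titles. Recovered reads ran from 9657633 (DP KO 2) to 14227980 (ISP control 1) per library, and 10241 to 10398 genes reached 1 RPKM. Summed RPKM of 5 sex-linked genes (Xist and 4 genes of the Y chromosome) was 43.3 to 174.1 in the control libraries and 21.1 to 26 in those labelled KO. This sum mixes genes of both sexes, and by Xist control 1 and control 2 also differ. The mean log2(RPKM + 1) over the 5 genes was 2.90 to 4.22 in the control libraries and 0.93 to 1.04 in those labelled KO. KO minus control was called lower for 2 of the 5 genes in ISP and 4 in DP. The sex makeup of the libraries therefore moves with genotype and between the controls. For the difference of steps, 0 of the 5 genes were called, but 4 were below 0. The median difference was -0.91 (log2 scale) and the range -0.96 to 0.14. Their median step was 0.87 in control and 0.00 in KO. The part of the sex makeup in the results was not tested.

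The step was smaller in the libraries labelled KO for 7286 of 10896 tested genes, and the genes whose step differed were mostly genes with a falling level on the way to DP. A gene was tested with at least 1 RPKM in at least 2 of the 8 libraries, and called with a Benjamini-Hochberg adjusted p under 0.05 in limma. The difference of steps was called for 428 genes (3.93%), of which 381 (3.5%) had a higher step in KO and 47 (0.431%) a lower one. Among the 381, 374 had a control step below 0, of which 353 were called. In KO, 265 of these had a step below 0 that was nearer to 0, and 109 had a step above 0. Their median step was -0.86 in control and -0.29 in KO on the log2(RPKM + 1) scale. Among the 47, 43 had a control step above 0, and in KO 29 of these had a smaller step above 0 and 14 a step below 0. Their median step was 0.93 in control and 0.19 in KO. These medians describe genes chosen by the difference itself. A difference of at least 2-fold was seen in 21 and 13 of them. The steps themselves were large in both genotypes. In control 3501 genes (32.1%) were called higher and 3617 (33.2%) lower in DP than in ISP, and in KO 3101 (28.5%) and 3055 (28%).

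KO and control differed at more genes in DP than in ISP. KO minus control was called for 27 genes (0.248%) in ISP and for 2387 (21.9%) in DP. Without adjustment, 1435 genes in ISP and 3929 in DP had a limma p under 0.05. The SD of the values over genes was 0.22 in ISP and 0.32 in DP. The few calls in ISP therefore do not show that KO and control were alike there. These comparisons share libraries with the difference of steps. The first principal component of the 8 libraries, with 79.6% of the variance, ran from ISP to DP. The 4 ISP libraries lay at -30.1 to -37.4 on it and both DP control libraries at 43.2. The DP KO libraries lay at 28.8 and 24.8, nearer to the ISP libraries. In bulk RNA, a smaller share of cells that completed a change and a smaller change per cell cannot be told apart.

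**Figure D1:**
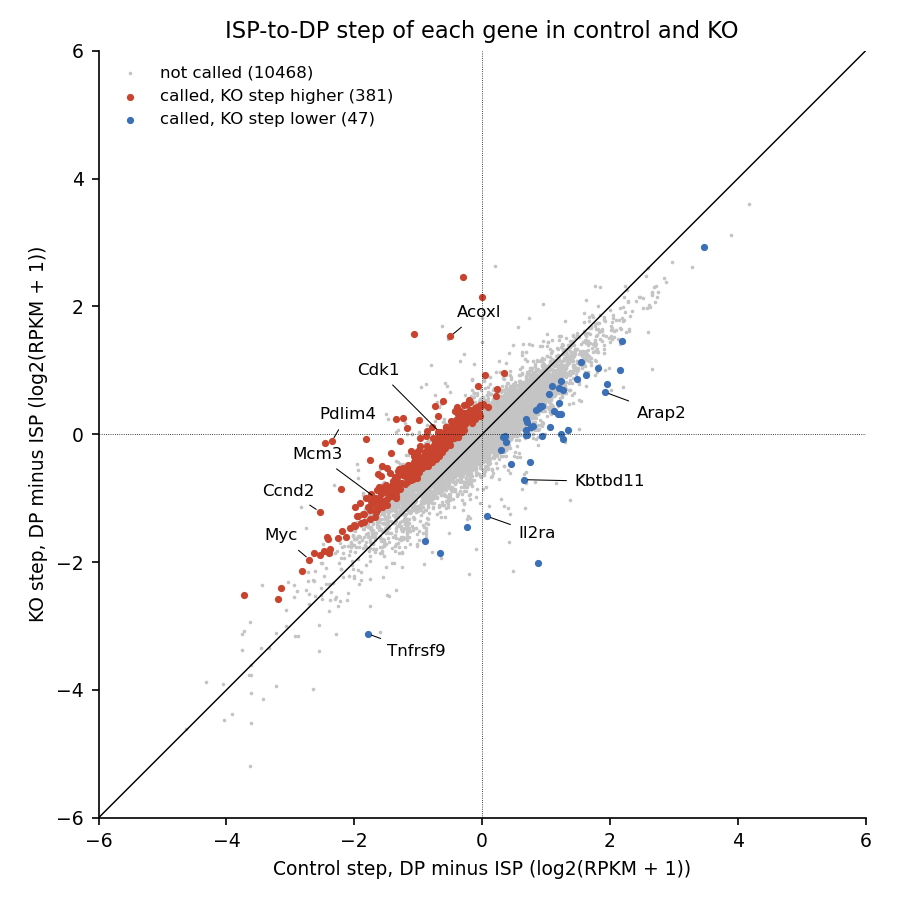
Each point is 1 of the 10896 tested genes, with its DP minus ISP step in control on the horizontal axis and in KO on the vertical axis, both on the log2(RPKM + 1) scale. The line marks equal steps. The 381 genes called higher in KO lie above it, mostly left of zero where control falls, and the 47 called lower lie below it.

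The number of calls moved strongly when single libraries were left out. With 2 libraries per group the fit has 4 residual degrees of freedom. Leaving out 1 library assumes that the lone library of that group varies like the others. Without ISP control 1 there were 90 calls, without ISP control 2 there were 4, without ISP KO 1 there were 92, and without ISP KO 2 there were 2. Without DP control 1 there were 47, without DP control 2 there were 25, without DP KO 1 there were 1267, and without DP KO 2 there were 207. Of the 43 called genes named in the text, 2 remained called in all 8 such fits (Pdlim4 and Snord47). Hist1h2ag remained called in 7, and Mcm3, Mcm5, Gins1 and Acoxl in 6. Gins2, Prim1, Ccna2, Ccnd2, Chek1 and Shmt1 remained in 5, and Cdk1, Cdca8, Myc, Shmt2, Tyrobp and Il2ra in 4. Cdc45, Nusap1, Top2a, Psat1, Tnfrsf9 and Arap2 remained in 3. Birc5, Cdk4, Hist1h3e, Fam212a, Cebpb, Ezh2, Gzma, Kbtbd11, Lta and Lrig1 remained in 2. Cdkn2c, Rbl1, Snord57, Dusp6, Cd28, Cd53, Myb and Itgal remained in 1.

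Genes of DNA replication lost less of their expression at the step in the libraries labelled KO. All 30 tested genes of the S phase list fell from ISP to DP in control, and 27 fell in KO. The difference was called higher for 26 of 30 and lower for 0, where 3.5% of all genes were called higher. The median difference over the list was 0.58 against 0.01 over all tested genes, with a range from 0.27 to 0.84. The steps of KO lay above all steps of control for all 30 genes, as for 21.5% of all genes. Median steps were -1.18 in control and -0.63 in KO. Leaving out 1 library gave 9 calls in the list without ISP control 1, 0 without ISP control 2, 9 without ISP KO 1 and 0 without ISP KO 2. It gave 8 without DP control 1, 4 without DP control 2, 27 without DP KO 1 and 22 without DP KO 2. The list's median stayed between 0.52 and 0.65 in these fits. With all 8 libraries but a filter of only above 0 in at least 1 library, 1 of 30 was called (median 0.58). Quantile normalization gave 22 calls (median 0.53).

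Mcm3 and Mcm5 encode subunits of the MCM ring, the motor of the replicative helicase. Mcm3 (chr1:20802968-20820312) read 243.1 and 243.5 RPKM for ISP control, 239.6 and 228.8 for ISP KO, 72.1 and 79.4 for DP control, and 112.8 and 122.0 for DP KO. ISP libraries lay close together, and the DP KO libraries stood above both DP control libraries without reaching the ISP level. The level dropped 3.21-fold at the step in control and 1.99-fold in KO, a difference of 0.68 ± 0.09 SE (adjusted p = 0.0134, called in 6 of 8 leave-one-out fits). Mcm5 (chr8:75109569-75128439) read 208.8 and 217.3 RPKM for ISP control, 204.3 and 198.9 for ISP KO, 68.5 and 73 for DP control, and 102.5 and 107.9 for DP KO. Its difference was 0.65 ± 0.08 SE (adjusted p = 0.0133).

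Gins1, Gins2 and Cdc45 complete the helicase. Gins1 read 67.6 to 71.2 RPKM in the 4 ISP libraries, 28.9 and 29 in DP control, and 47.9 and 47.5 in DP KO. Gins2 read 76.4 to 85.2 RPKM in ISP, 19.9 and 19.4 in DP control, and 32.4 and 36.8 in DP KO. Both had nearly the same level in the 2 genotypes at ISP and did not overlap at DP. The differences of steps were 0.71 ± 0.08 SE for Gins1, 0.84 ± 0.11 for Gins2 and 0.59 ± 0.09 for Cdc45, with adjusted p of 0.0133, 0.0134 and 0.0145. Prim1, the catalytic subunit of primase, differed by 0.68 ± 0.09 SE (adjusted p = 0.0134). Pola1, the catalytic subunit of DNA polymerase alpha, did not pass the test (0.42 ± 0.12 SE, adjusted p = 0.0813).

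Most genes of G2 and mitosis fell in control, and 0 were called lower in DP than in ISP in KO. In control, 24 of 30 tested genes of the list fell from ISP to DP and 0 rose, while in KO 15 rose, 0 fell and the others did not pass the test. The difference was called higher for 21 of 30 and lower for 0, where 3.5% of all genes were called higher. Its median over the list was 0.52 and its range 0.25 to 0.72. Median steps were -0.34 in control and 0.20 in KO. All 30 genes had KO steps above all control steps, as had 21.5% of all genes. With a filter of only above 0 in at least 1 library, 0 of 30 were called (median 0.52). Quantile normalization gave 12 calls (median 0.42). Leaving out 1 library gave 3 calls without ISP control 1, 0 without ISP control 2, 6 without ISP KO 1 and 0 without ISP KO 2. It gave 0 without DP control 1, 1 without DP control 2, 25 without DP KO 1 and 13 without DP KO 2, with the median between 0.45 and 0.60.

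Cdk1, the kinase that drives entry into mitosis (chr10:69335146-69352938), read 115.3 and 113.7 RPKM for ISP control and 107.9 and 104.3 for ISP KO. In DP it read 71.7 and 72.7 in control and 100.8 and 116.6 in KO. It fell 1.59-fold in control (adjusted p = 1.69e-05), while its KO step was 0.03 (adjusted p = 0.732). The difference was 0.69 ± 0.10 SE (adjusted p = 0.0139, called in 4 of 8 leave-one-out fits). Ccna2, cyclin A2, fell in control by 0.41 and rose in KO by 0.22, both on the log2 scale (adjusted p = 1.58e-04 and 0.0104). Nusap1, which binds spindle microtubules, likewise fell by 0.37 in control and rose by 0.34 in KO. These 2 genes went in opposite directions, with differences of 0.63 ± 0.08 SE and 0.72 ± 0.11 (adjusted p = 0.0134 and 0.0148).

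Top2a, the topoisomerase that untangles chromosomes, read 192.1 and 197.1 RPKM in DP control against 240.2 and 245.9 in DP KO, and differed in step by 0.48 ± 0.08 SE (adjusted p = 0.0162). With quantile normalization its adjusted p was 0.0709. Birc5 and Cdca8 belong to the chromosomal passenger complex that controls chromosome segregation. Their differences were 0.53 ± 0.09 SE and 0.54 ± 0.08 (adjusted p = 0.0155 and 0.0146). Cenpe, a kinetochore motor, had a control step of 0.00 and a KO step of 0.42, and the difference did not pass (adjusted p = 0.0585).

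**Figure D2:**
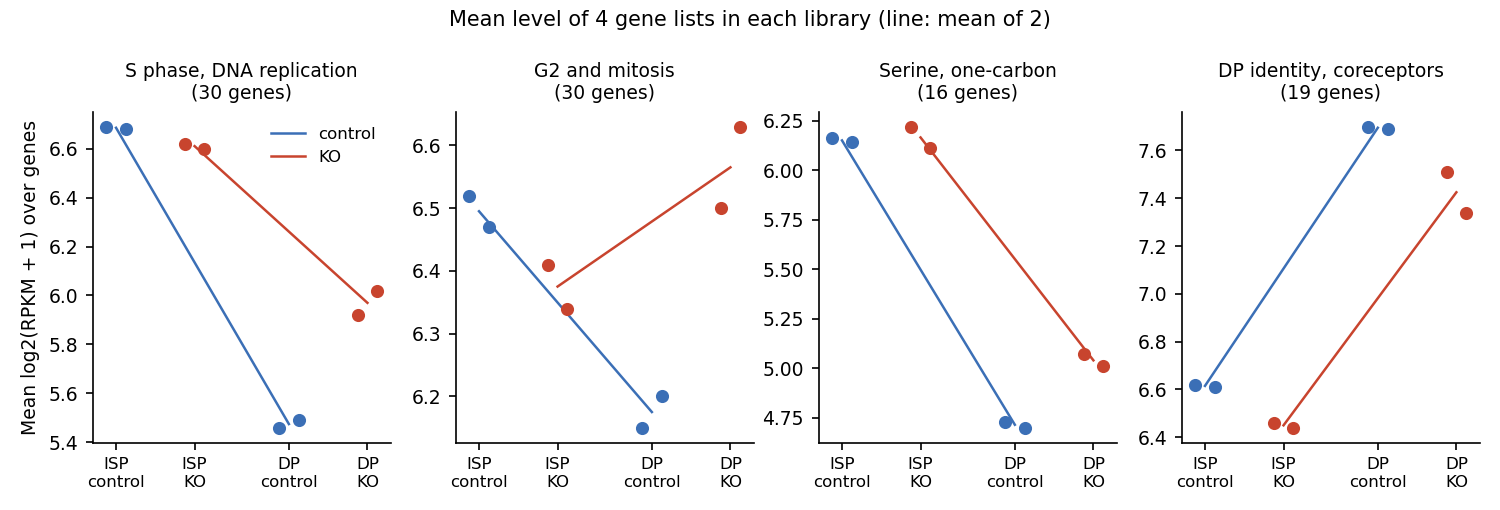
Points are libraries, the vertical axis is the mean log2(RPKM + 1) over the tested genes of a list, and lines join group means from ISP to DP in control (blue) and KO (red). S phase genes end at 5.46 and 5.49 in DP control and at 5.92 and 6.02 in DP KO. G2 and mitosis genes end at 6.15 and 6.20 in DP control and at 6.50 and 6.63 in DP KO, above both ISP KO libraries.

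Since these 2 lists moved as groups, the letters of their promoters were read. RefSeq promoters (GRCm38.p6, 250 bases before to 50 after a gene's start) matched by symbol for 8246 of 10896 tested genes and 279 of the 381 called higher. Both strands were searched for TTTCCCGC or TTTGGCGC (the type bound by E2F factors, which drive S phase genes), TTTGAA (the CHR element known from mitotic genes) and CCAAT (bound by NF-Y). Promoters of 5 described genes follow, with matches in capitals. Mcm3, Mcm5, Cdk1 and Cdca8 were picked, after the search, as examples that hold the motifs. Nusap1 is shown because it had the largest difference of the G2 and mitosis list.
Mcm3 (chr1:20820263-20820562, minus strand): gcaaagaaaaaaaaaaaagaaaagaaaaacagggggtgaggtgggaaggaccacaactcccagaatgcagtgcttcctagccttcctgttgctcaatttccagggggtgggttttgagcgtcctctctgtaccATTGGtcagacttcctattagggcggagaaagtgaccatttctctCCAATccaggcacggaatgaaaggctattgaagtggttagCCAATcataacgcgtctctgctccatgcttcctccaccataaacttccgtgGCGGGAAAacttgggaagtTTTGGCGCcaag
Mcm5 (chr8:75109259-75109558, plus strand): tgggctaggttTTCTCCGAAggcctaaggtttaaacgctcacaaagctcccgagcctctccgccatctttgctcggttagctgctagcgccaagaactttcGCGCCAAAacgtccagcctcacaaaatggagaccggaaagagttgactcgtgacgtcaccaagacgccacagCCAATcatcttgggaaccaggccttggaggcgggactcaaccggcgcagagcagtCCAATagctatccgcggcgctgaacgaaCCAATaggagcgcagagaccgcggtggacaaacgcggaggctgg
Cdk1 (chr10:69352863-69353162, minus strand): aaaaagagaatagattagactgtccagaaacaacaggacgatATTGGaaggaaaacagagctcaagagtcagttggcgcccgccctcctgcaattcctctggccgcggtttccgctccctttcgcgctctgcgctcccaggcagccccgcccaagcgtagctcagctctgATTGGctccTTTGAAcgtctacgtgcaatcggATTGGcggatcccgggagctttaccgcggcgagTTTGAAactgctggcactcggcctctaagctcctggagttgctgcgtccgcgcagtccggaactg
Cdca8 (chr4:124936868-124937167, minus strand): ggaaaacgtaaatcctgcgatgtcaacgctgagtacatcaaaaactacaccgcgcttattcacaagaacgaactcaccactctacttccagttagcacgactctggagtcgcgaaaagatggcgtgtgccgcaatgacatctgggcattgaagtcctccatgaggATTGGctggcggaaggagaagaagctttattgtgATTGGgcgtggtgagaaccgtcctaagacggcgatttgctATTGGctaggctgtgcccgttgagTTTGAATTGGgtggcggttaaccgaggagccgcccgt
Nusap1 (chr2:119618048-119618347, plus strand): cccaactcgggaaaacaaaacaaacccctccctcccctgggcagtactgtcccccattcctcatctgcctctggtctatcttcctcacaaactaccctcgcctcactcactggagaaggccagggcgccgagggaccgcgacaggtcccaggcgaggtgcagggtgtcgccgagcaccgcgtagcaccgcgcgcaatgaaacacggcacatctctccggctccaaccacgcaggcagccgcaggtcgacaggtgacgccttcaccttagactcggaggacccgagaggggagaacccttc

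The Mcm3 window holds 2 E2F-type matches and the Mcm5 window 1, with no CHR match in either. Mcm5 also holds 1 match to TTCNNNGAA, the type bound by BCL6 and by STAT factors. The Cdk1 window holds 2 CHR matches and the Cdca8 window 1, with no E2F-type match in either, and in Cdca8 the CHR match shares 1 base with a CCAAT match on the other strand. These 4 windows hold 3 or 4 CCAAT matches each, and the Nusap1 window holds 0 matches to any motif searched. E2F-type letters were in a promoter of 8 of 24 S phase genes (33.3%) and 0 of 25 G2 and mitosis genes with a promoter. CHR letters were in 5 (20.8%) and 19 (76.0%). Among all tested genes these shares were 3.8% and 13.9%, and among genes called higher 12.5% and 27.6%. CCAAT was in 53.4% of genes called higher and 43.4% of tested genes. TTCNNNGAA was in 7.5% of genes called higher, 8.4% of tested genes, and 6 of 37 genes called lower (16.2%). Of all 32851 promoters, 1.6% held the E2F type, 17.9% CHR, 37.4% CCAAT and 8.3% TTCNNNGAA. A match of letters is not evidence of binding, and a gene can have more than 1 promoter.

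Regulators of the cycle were mixed. Of 13 tested D cyclins, CDK partners and inhibitors, 4 were called higher and 0 lower, where 3.5% of all genes were called higher. Ccnd2, a D cyclin that BCL6 is known to repress (chr6:127125162-127152193), read 24 and 30.9 RPKM for ISP control, 36 and 40.8 for ISP KO, 4.39 and 3.4 for DP control, and 15 and 17.1 for DP KO. It was 4.11-fold higher in DP KO than in DP control. Its step was -2.54 in control and -1.21 in KO, a difference of 1.33 ± 0.19 SE (adjusted p = 0.0141, called in 5 of 8 leave-one-out fits). Ccnd3, the D cyclin that thymocytes need for expansion, rose in both genotypes, and its difference was 0.11 ± 0.08 SE (adjusted p = 0.491).

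Cdk4, the kinase partner of D cyclins, differed by 0.43 ± 0.09 SE (adjusted p = 0.0313). The CDK inhibitor Cdkn2c rose in both genotypes, by 0.35 in control and 0.96 in KO, a difference of 0.60 ± 0.12 SE (adjusted p = 0.0241). Rbl1, the pocket protein p107, differed by 0.49 ± 0.12 SE (adjusted p = 0.0482). With quantile normalization Cdk4 had an adjusted p of 0.0948 and Rbl1 of 0.0668, so neither was called. Both an activator of the cycle and an inhibitor of it were thus among the genes with a higher step in KO.

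Chek1, a checkpoint kinase, and Myc, the growth factor-induced transcription factor, are also on the list of genes BCL6 is known to repress. Myc read 130.2 and 137.7 RPKM for ISP control, 152.4 and 152.7 for ISP KO, 20.9 and 18.8 for DP control, and 35.5 and 41.6 for DP KO. It fell 6.76-fold in control and 3.96-fold in KO, a difference of 0.74 ± 0.12 SE (adjusted p = 0.0155). Chek1 read 9.82 and 9.4 RPKM in DP control against 15.4 and 17.1 in DP KO, and differed by 0.75 ± 0.11 SE (adjusted p = 0.0145). These and Ccnd2 were the 3 called members of that list of 27 tested genes (0 were called lower). Over all genes 3.5% were called higher. The list as a whole had a median difference of -0.10, with 17 of 27 members below 0.

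Against 3.5% of all genes, histone genes that are transcribed in S phase were called higher for 8 of 19 tested members and lower for 0. Their median difference was 0.51. Their median KO minus control value was -0.40 in ISP and 0.19 in DP. Leaving out 1 library gave 9 calls without DP KO 1, 6 without DP KO 2 or ISP KO 1, 4 without ISP control 1 or DP control 1, 1 without ISP control 2 or DP control 2, and 0 without ISP KO 2. Hist1h2ag read 38 and 38 RPKM for ISP control, 33.3 and 32.2 for ISP KO, 12.1 and 12.3 for DP control, and 21.6 and 24.1 for DP KO. Its difference was 1.06 ± 0.11 SE (adjusted p = 0.00449, called in 7 of 8 leave-one-out fits). Hist1h3e was lower in level, at 1.74 to 6.34 RPKM over the 8 libraries, and differed by 1.17 ± 0.24 SE (adjusted p = 0.0273, and 0.130 with voom, a fit that weights by recovered reads). Histone genes are near-identical copies and their messages lack a poly(A) tail, so counts for a single one are uncertain. They are also short, and after removal of the length trend 3 of the 19 were called and the median was 0.26.

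Small nucleolar RNAs had some of the largest differences but rest on very few reads. Snord47, which lies in an intron of a host gene whose reads it can share, read 18.6 and 19.8 RPKM for ISP control, 14.1 and 15.1 for ISP KO, 4.38 and 5.04 for DP control, and 14.6 and 12.9 for DP KO. Its difference of 1.74 ± 0.14 SE (adjusted p = 0.00216) came from 3 to 17 reads per library. With voom it was 1.81 with an adjusted p of 0.140. Snord57 had a difference of 1.49 ± 0.35 SE (adjusted p = 0.0449) from 1 to 5 reads per library, and with voom its adjusted p was 0.346.

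Most genes on the biosynthetic lists fell in both genotypes. Of 16 genes for serine, one-carbon and amino acid supply, 13 fell and 2 rose in control, and 14 fell and 2 rose in KO. For 6 of the 16 the difference was called higher and for 0 lower, where 3.5% of all genes were called higher. Shmt1 and Shmt2 make one-carbon units from serine. Shmt1 read 84.7 to 91.7 RPKM in the 4 ISP libraries, 11.7 and 11.1 in DP control, and 19.5 and 19.4 in DP KO. It fell 7.58-fold in control and 4.60-fold in KO (difference 0.67 ± 0.09 SE, adjusted p = 0.0134, called in 5 of 8 leave-one-out fits). Shmt2 differed by 0.78 ± 0.14 SE and Psat1, an enzyme of serine synthesis, by 0.53 ± 0.10 (adjusted p = 0.0184 and 0.0191). Leaving out 1 library gave between 0 and 6 calls for this list, with 0 without ISP control 2, ISP KO 2 or DP control 2.

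Cytosolic ribosomal proteins fell in both genotypes for all 20 tested genes, with median steps of -1.22 and -0.85. Of these 5 were called higher, against 3.5% of all genes. All 20 had KO steps above all control steps, against 21.5% of all genes. The median difference was 0.34, and after removal of the length trend it was 0.14 with 1 gene called. Without DP KO 1 there were 10 calls, without DP KO 2 there were 4, without ISP control 1 there was 1, and without any of the other 5 libraries 0. Ribosome biogenesis had 1 of 20 called higher, oxidative phosphorylation 2 of 20, cholesterol synthesis 1 of 20 and glycolysis 0 of 18, with 0 called lower in each. A count of 0 or 1 is near the 3.5% of all genes called higher. The median differences of these lists were 0.29, 0.29, 0.29 and 0.11. Glycolysis had 14 genes that fell and 2 that rose in each genotype, and ribosome biogenesis 19 and 1. Without DP KO 1 the calls for ribosome biogenesis, oxidative phosphorylation and cholesterol synthesis were 8, 12 and 8, and without any other library 0 or 1.

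Among the genes named here, the largest difference was in Pdlim4 (chr11:54054928-54069014), which encodes a PDZ and LIM domain protein of the actin cytoskeleton. Over all called genes, the largest absolute difference was 2.76 for a higher step in KO and 2.88 for a lower one. Pdlim4 was well expressed. It read 116.3 and 105.1 RPKM for ISP control, 181.4 and 154.5 for ISP KO, 20.9 and 20.9 for DP control, and 130.4 and 185.6 for DP KO. The gene fell 5.29-fold in control, while its KO step was -0.11 (adjusted p = 0.541). Its difference was 2.24 ± 0.20 SE (adjusted p = 0.00217, and at most 0.0227 in the 8 leave-one-out fits). Acoxl, a relative of acyl-CoA oxidases (chr2:127838876-128123873), read 0.992 and 1.02 RPKM for ISP control, 2.74 and 2.09 for ISP KO, 0.432 and 0.401 for DP control, and 7.45 and 10.5 for DP KO. It fell in control and rose in KO, a difference of 2.04 ± 0.25 SE (adjusted p = 0.0133, called in 6 of 8 leave-one-out fits). Fam212a differed by 1.35 ± 0.26 SE (adjusted p = 0.0241).

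Tyrobp and Gzma, known from innate and effector cells, were called, while the other tested members of their lists were not. With 3.93% of all genes called, 0 or 1 call in lists of this size is no result about a list. Tyrobp, the signalling adaptor DAP12 of natural killer (NK) and myeloid cells, read 73.4 to 105.4 RPKM in ISP, 6.38 and 5.06 in DP control, and 14.9 and 16 in DP KO. Its difference was 1.22 ± 0.21 SE (adjusted p = 0.0162, and 0.0578 with voom). It was the 1 called member of 8 tested NK markers. The 11 NK markers summed to 149.5 to 235.4 RPKM in the ISP libraries, 13.6 and 10.2 in DP control, and 26.6 and 29.7 in DP KO. Tyrobp is itself part of this sum. Of the 8 tested NK markers, 5 had a difference above 0 and 3 below 0. Their median difference was 0.05, against 0.01 over all tested genes, and the range was -0.84 to 1.22. Ncr1, 1 marker of that list, went the other way from the sum, at levels near 0. It read 0.844 and 0.224 RPKM in DP control and 0 and 0.0719 in DP KO.

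Gzma, the protease granzyme A, read 820.1 to 937.9 RPKM in ISP, 103.4 and 93.2 in DP control, and 145.9 and 187.1 in DP KO (difference 0.74 ± 0.16 SE, adjusted p = 0.0313). It was the 1 called member of 16 tested effector genes, of which 11 had a difference below 0. That list's median difference was -0.15, and its median steps were -2.04 in control and -2.10 in KO. Cebpb, a transcription factor of myeloid and stimulated cells that was on none of the lists, differed by 1.01 ± 0.19 SE (adjusted p = 0.0218). Of 17 myeloid and dendritic markers, 3 were under 1 RPKM in all 8 libraries. Their sum was 50.9 and 51.9 RPKM for ISP control, 95.5 and 94.4 for ISP KO, 40.7 and 31.3 for DP control, and 80.6 and 115.0 for DP KO, and 0 of the 11 tested were called. The part of either cell type in these results was not tested. Ezh2, the histone H3 lysine methyltransferase of Polycomb, was the 1 called gene of 18 chromatin enzymes (0.43 ± 0.08 SE, adjusted p = 0.0191, and 0.0770 with quantile normalization).

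**Figure D3:**
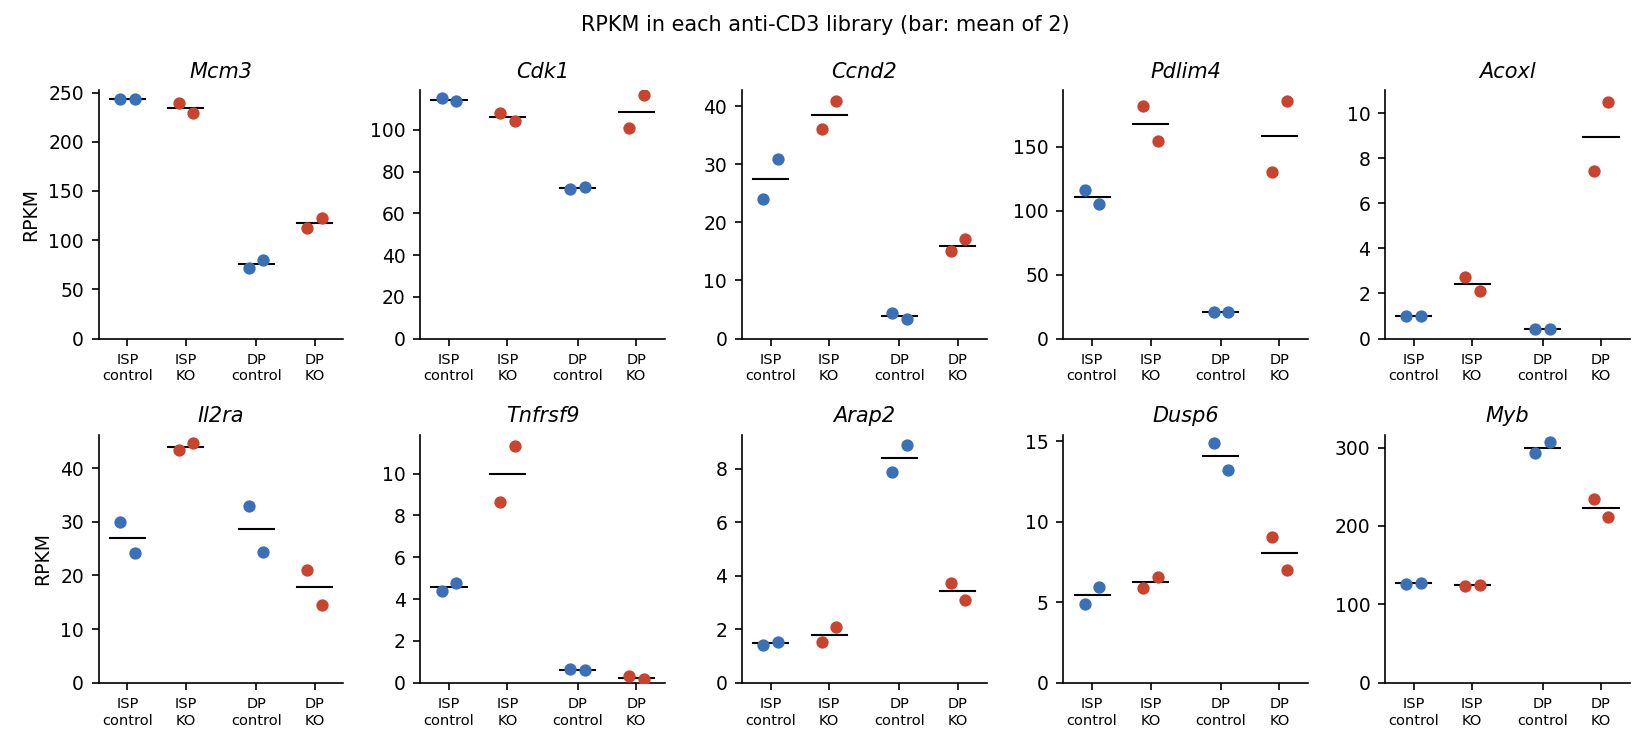
RPKM of 10 genes in each of the 8 libraries, with control in blue, KO in red and a bar at the mean of 2. Mcm3, Cdk1, Ccnd2, Pdlim4 and Acoxl are higher in both DP KO libraries than in both DP control libraries, and Il2ra, Tnfrsf9, Arap2, Dusp6 and Myb are lower in both.

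Fewer genes had a lower step in KO (0.431% of all genes), and no list held more than 1 of them. Il2ra, the CD25 chain of the interleukin-2 receptor (chr2:11642807-11693193), read 29.9 and 24.2 RPKM for ISP control, 43.3 and 44.7 for ISP KO, 33 and 24.3 for DP control, and 21.1 and 14.5 for DP KO. Its step was 0.07 in control (adjusted p = 0.732), and in KO it fell 2.47-fold. The difference was -1.35 ± 0.25 SE (adjusted p = 0.0191, called in 4 of 8 leave-one-out fits). It was the 1 called member of 18 tested cytokine receptor and STAT5 target genes, and of 13 CD25-stage and Notch target genes.

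Tnfrsf9, the costimulatory receptor 4-1BB (chr4:150914562-150946102), read 4.41 and 4.79 RPKM for ISP control, 8.65 and 11.3 for ISP KO, 0.642 and 0.59 for DP control, and 0.311 and 0.189 for DP KO. The last 2 values rest on 8 and 4 reads. It fell in both genotypes and fell further in KO (difference -1.33 ± 0.22 SE, adjusted p = 0.0162). At ISP it was higher in KO (adjusted p = 0.0476). Lta, the cytokine lymphotoxin alpha, rose by 0.75 in control, and its KO step was -0.44 (adjusted p = 0.0796). The difference was -1.18 ± 0.28 SE with an adjusted p of 0.0441, and of 0.0679 with quantile normalization and 0.0505 with voom. Cd53, a tetraspanin of leukocytes, fell in both genotypes and further in KO (-0.77 ± 0.15 SE, adjusted p = 0.0261).

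A second set rose in control and rose less, or not detectably, in KO. Arap2, a GTPase-activating protein for Arf proteins (chr5:62602445-62766159), read 1.41 and 1.54 RPKM for ISP control, 1.51 and 2.1 for ISP KO, 7.88 and 8.9 for DP control, and 3.74 and 3.1 for DP KO. It rose 5.70-fold in control and 1.89-fold in KO (difference -1.26 ± 0.21 SE, adjusted p = 0.0162, called in 3 of 8 leave-one-out fits). Lrig1, which restrains receptor tyrosine kinases, rose 7.43-fold and 2.73-fold (-1.15 ± 0.27 SE, adjusted p = 0.0446, and 0.0689 with quantile normalization). Dusp6, a phosphatase that switches off ERK, read 14.9 and 13.2 RPKM in DP control against 9.04 and 7.03 in DP KO. Its step was 1.23 in control and 0.31 in KO, and only the first passed the test (difference -0.92 ± 0.19 SE, adjusted p = 0.0307). Kbtbd11, a kelch and BTB domain protein, rose in control and fell in KO (-1.36 ± 0.29 SE, adjusted p = 0.0312).

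Myb, a transcription factor that DP thymocytes need, read 123.6 to 127.0 RPKM in the 4 ISP libraries, 292.8 and 307.1 in DP control, and 233.8 and 211.0 in DP KO. It rose in both genotypes, less in KO (-0.40 ± 0.09 SE, adjusted p = 0.0345, called in 1 of 8 leave-one-out fits). Myb was the 1 called member of 16 E protein, Id and commitment genes. Cd28, the costimulatory receptor for B7 ligands, was called lower (-0.36 ± 0.08 SE, adjusted p = 0.0429), the 1 call among 19 tested genes for the receptor complex and its signalling. Itgal, the alpha chain of the integrin LFA-1, was also called lower (-0.40 ± 0.09 SE, adjusted p = 0.0391).

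Genes that define the DP stage were not called for the difference of steps. Of 19 tested DP identity and coreceptor genes 0 were called. Over all genes 3.93% were called, so 0 of 19 is near that share. In control 16 of the 19 rose and in KO 16, with median steps of 1.29 and 1.16. The difference was below 0 for 15 of 19, with a median of -0.11. In DP alone, KO minus control was called lower for 13 of 19 and higher for 1, against 7.52% of all genes called lower, with a median of -0.29. Cd4 rose 18.9-fold in control and 12.8-fold in KO, with a difference of -0.55 ± 0.22 SE (adjusted p = 0.185). Cd8a and Cd8b1 differed by 0.16 ± 0.09 SE and 0.19 ± 0.09 (adjusted p = 0.329 and 0.280). Ptcra, the pre-T cell receptor alpha chain, differed by 0.35 ± 0.16 SE (adjusted p = 0.235). These values do not show that the steps were equal.

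Receptor-response transcription factors and feedback genes were called higher for 1 of 17 (Myc) and lower for 1 (Dusp6), with 15 of 17 differences below 0 and a median of -0.27. p53 targets (15 tested), BCL2 family genes (13), FOXO and KLF2 genes (13) and interferon-response genes (21) had 0 calls, against 3.93% of all genes. KO minus control in DP was called higher for 17 of the 21 interferon genes and for 14.4% of all genes, and in ISP it was called for 1 of 21. Their median KO minus control value was 0.68 in ISP and 0.81 in DP. Chemokine receptors and integrins had 1 of 15 called higher and 1 lower, and MHC class I and antigen processing genes 1 of 12 higher. Markers of gamma delta T cells, mast cells, B cells, red cells, epithelium, mesenchyme and endothelium had 0 calls among 14 tested genes. The 9 mast cell markers summed to 10.6 and 13 RPKM for ISP control, 24.9 and 31.2 for ISP KO, 1.78 and 1.16 for DP control, and 2.47 and 0.658 for DP KO. Their part in the results was not tested.

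**Figure D4:**
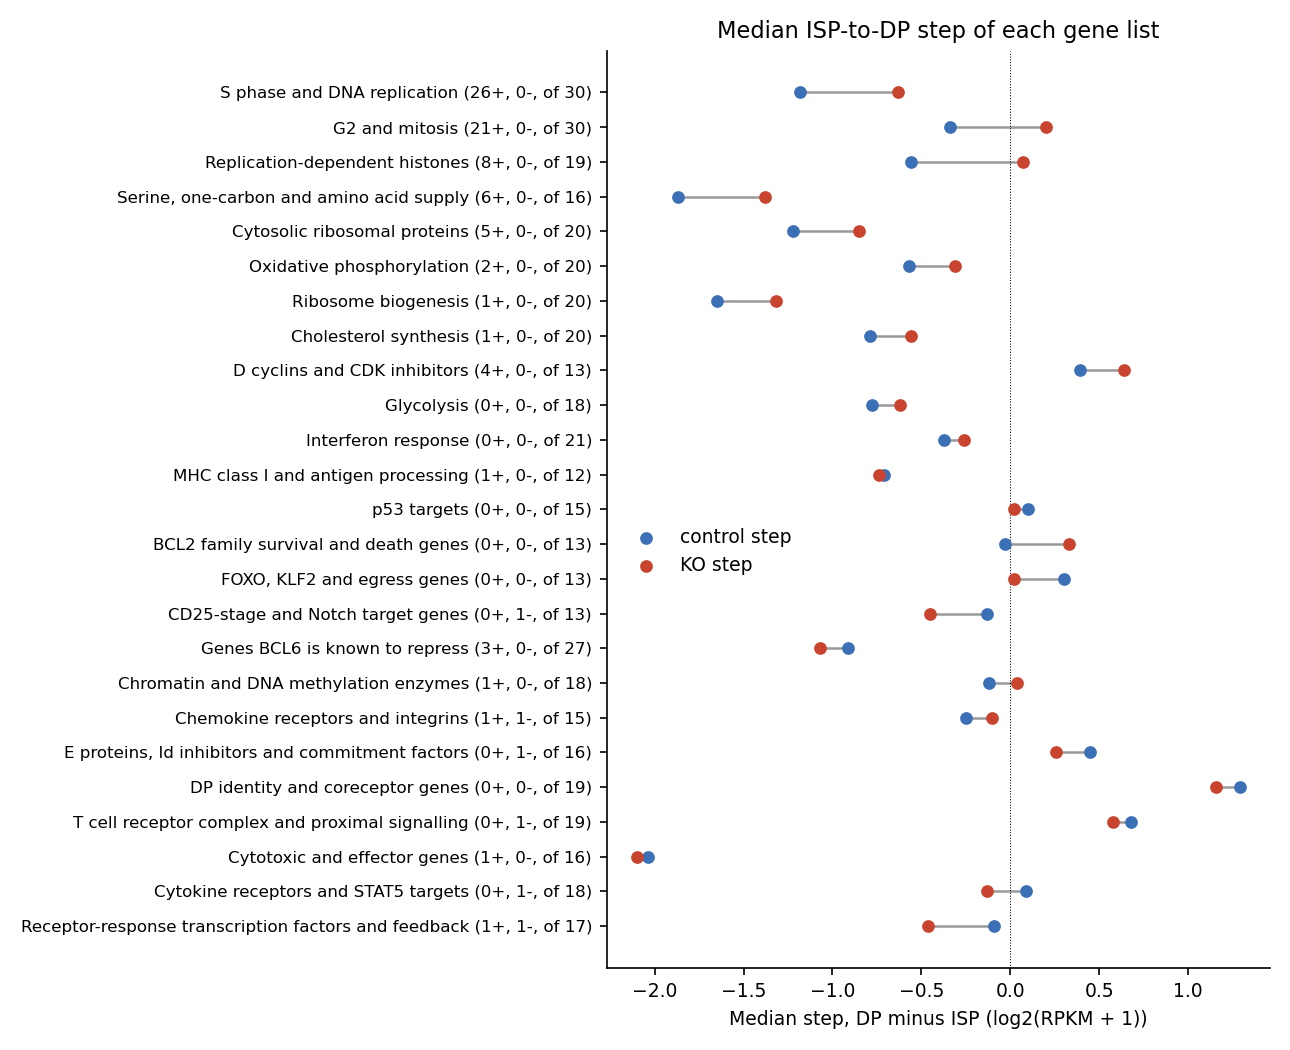
Median DP minus ISP step of each gene list in control (blue) and KO (red), on the log2(RPKM + 1) scale, ordered by the median difference. Numbers give how many tested genes were called higher (+) or lower (-). S phase and G2 and mitosis genes stand at the top with 26 and 21 calls, and DP identity genes have none. Over all tested genes 3.93% were called.

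Gene length moved with the difference. Over the 10896 genes, Spearman's rho between length and the difference was -0.34, a correlation across genes, which are not replicates. For the control step it was 0.32 and for the KO step 0.22. The median difference was 0.21 in the eighth of genes with the shortest lengths (28 to 1121 bases) and -0.14 in the eighth with the longest (5533 bases or more). Genes called higher had a median length of 1589 bases, against 2738 for all tested genes, and a median level of 78.4 RPKM against 13.9. After each library's length trend was removed, a choice made after seeing the data, 243 genes were called (209 higher and 34 lower), of which 232 were among the 428. S phase genes then had 25 of 30 calls and G2 and mitosis genes 21 of 30, with medians of 0.55 and 0.50. Pdlim4 kept a difference of 2.09 (adjusted p = 0.003). Of the 43 called genes named here, 8 were not called after this removal. Their differences were then 0.29 for Cdk4, 0.86 for Hist1h3e, 1.42 for Snord57, 0.55 for Gzma, -1.24 for Kbtbd11, -1.06 for Lrig1, -0.30 for Cd28 and -0.31 for Itgal. The adjusted p ran from 0.0523 (Kbtbd11) to 0.121 (Hist1h3e). Long nuclear RNAs, followed as a sign of RNA quality, summed over 5 genes to 46.9 to 83 RPKM in ISP, 261.1 and 236.8 in DP control, and 224.9 and 136.8 in DP KO. DP KO 2 was lowest of the DP libraries there, and also on the second principal component (-20.6, against -10.6 for DP KO 1). That component also separated the genotypes, with the control libraries at 5.9 to 13.6 and the ISP KO libraries at -3.0 and -6.0. The part of RNA quality in the results was not tested.

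**Figure D5:**
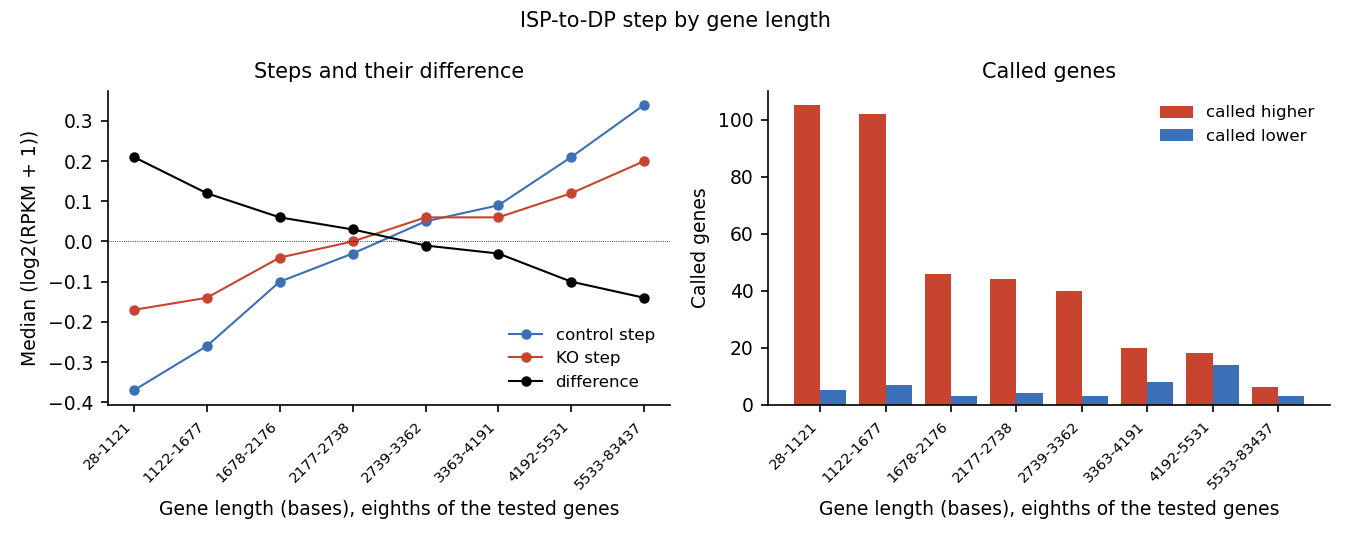
Left, median step in control (blue) and KO (red) and their difference (black) on the log2(RPKM + 1) scale, in eighths of the tested genes by length in bases. Right, the number of genes called higher and lower in each eighth, which is 105 and 5 in the shortest and 6 and 3 in the longest.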

How the data were processed

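RNA from sorted mouse thymocytes was sequenced, and the deposited table gave RPKM values, which the authors computed for 24421 genes. BWA and the GRCm38 build are named per the submitters' processing notes. For counter, annotation and versions: not given in the sources used here. Low values were whole multiples of 1 read, so read counts and gene lengths were recovered (100% of 169595 values above 0 within 0.02 reads). For a gene 1000 bases long, a single read equals 0.0709 to 0.105 RPKM in the 8 libraries, and precision covers counting error only. Of the names, 27 had the form of dates and carry no result.

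Linear models with a variance trend were fitted to log2(RPKM + 1) in R 4.3.3 (limma 3.58.1). This scale understates changes of low genes. The filter was at least 1 RPKM in at least 2 of 8 libraries. The 4 groups followed the sample titles. Adjustment was Benjamini-Hochberg over 10896 genes, with 4 residual degrees of freedom. Positions are GENCODE M21 (GRCm38), and promoters are RefSeq (GRCm38.p6). Python 3.11.15, pandas 2.3.3, numpy 2.4.6 and matplotlib 3.10.9 made tables and plots.

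Named genes came from a rule. For each direction it takes up to 15 called genes with the largest difference, with KO and control steps that do not overlap and a group mean of at least 5 RPKM. For this it leaves out symbols of predicted genes or clones, repeated symbols and names in the form of dates. It also takes up to 6 called and 3 other genes per list, and the genes that check labels. The text names part of them. Members and gene lists were chosen with earlier results of these data known. Alternatives covered pseudocount, filter, scaling, all 12 libraries, replicate blocks, voom on recovered reads, robust moderation, groups by library name, length and each library left out.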

Additional observations from a re-analysis of the deposited data

Results flagged for a closer look

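The ISP-to-DP step differed between genotypes, by the test of the difference itself, for 428 genes. In log2 units, the difference in step (KO minus control) of the named genes was Mcm3 0.68, Mcm5 0.65, Gins1 0.71, Gins2 0.84, Cdc45 0.59, Prim1 0.68, Cdk1 0.69, Ccna2 0.63, Nusap1 0.72, Top2a 0.48 and Birc5 0.53. In the same units it was Cdca8 0.54, Ccnd2 1.33, Cdk4 0.43, Cdkn2c 0.60, Rbl1 0.49, Chek1 0.75, Myc 0.74, Hist1h3e 1.17, Hist1h2ag 1.06, Shmt1 0.67, Shmt2 0.78 and Psat1 0.53. It was Pdlim4 2.24, Acoxl 2.04, Snord47 1.74, Snord57 1.49, Fam212a 1.35, Tyrobp 1.22, Cebpb 1.01, Ezh2 0.43 and Gzma 0.74 for the other genes with a higher step in KO. Among genes with a lower step in KO it was Kbtbd11 -1.36, Il2ra -1.35, Tnfrsf9 -1.33, Arap2 -1.26, Lta -1.18, Dusp6 -0.92, Lrig1 -1.15, Cd28 -0.36, Cd53 -0.77, Myb -0.40 and Itgal -0.40.

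Gh, the growth hormone gene, gave reads in libraries outside this comparison. The unstimulated CD25-positive KO libraries held 8 and 10 reads (18 in all), and the CD25-positive control libraries 0 and 0. In the anti-CD3 libraries Gh had 0 reads in all 4 controls, 20 and 35 in ISP KO, and 59 and 93 in DP KO. Its difference in step did not pass the test (1.45 ± 0.38 SE, adjusted p = 0.065).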

How the results depend on the processing

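Groups by library name gave 0 calls for the difference, for both directions and for each step. Of the 52 named genes, 31 then had the opposite sign. Their differences were Mcm3 -0.16, Mcm5 -0.07, Cdc45 -0.04, Prim1 -0.12, Cdk1 -0.15, Ccna2 -0.13, Nusap1 -0.22, Top2a -0.11, Birc5 -0.10, Cdca8 -0.10, Cdk4 -0.04, Cdkn2c -0.20, Rbl1 -0.20, Chek1 -0.01, Hist1h3e -0.16 and Hist1h2ag -0.11, and Psat1 -0.05, Pdlim4 -0.44, Acoxl -0.33, Cebpb -0.44, Ezh2 -0.08, Kbtbd11 0.32, Il2ra 0.34, Tnfrsf9 0.32, Arap2 0.22, Lta 0.28, Dusp6 0.43, Lrig1 0.25, Cd53 0.37, Myb 0.05 and Itgal 0.10.

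Of 43 named called genes, between 2 and 42 stayed called when 1 library was left out. Such fits gave 2 to 1267 calls (2 to 992 higher, 0 to 275 lower), while the control step had 6138 to 7242 calls and the KO step 5009 to 6048. Without a filter beyond 1 library above 0, there were 18 calls (16 higher, 2 lower) and 5 of the 43 stayed called. A filter at 5 RPKM gave 80 lower. Quantile normalization gave 271 calls (222 higher), with 36 of the 43 kept, and voom 664 (155 lower), with 38 kept. Removal of the length trend gave 243 (209 higher). In untransformed RPKM, 3 called genes had the other sign. The cause of these shifts was not tested. Pseudocounts of 0.25 and 4, upper quartile scaling, robust moderation and the fit of 12 libraries left the total within 1.5 times of 428. In the fit as reported, 2339 genes had p under 0.05 without adjustment.

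With the replicate number as a block there were 651 calls (577 higher, 74 lower), and with the block nested in genotype 804 (670 higher, 134 lower). The labels do not say that a number marks a shared embryo or culture. Deviations of same-numbered ISP and DP libraries had r = 0.14 in control and 0.06 in KO, across genes. Xist read 20.5 and 22.5 RPKM in ISP and DP control 1, and 0.766 and 0.914 in ISP and DP control 2, so in control the sex-linked level follows the number. All 43 stayed called with either block. The fit without libraries whose library name differs from the title was not run, since only 2 libraries remain. At this depth genes near 1 RPKM rest on few reads.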
